A study of Mus musculus with 2 samples.

Results

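CC chemokine genes were followed in alveolar macrophages (AMs), the resident macrophages of the airspaces. They are *Ccl6*, *Ccl9*, *Ccl3*, *Ccl4*, *Ccl2* and *Ccl17*, chosen by symbol and matched to their Ensembl identifiers. They make up 6 of the 32285 genes in the count tables and 6 of the 23 whose symbol is Ccl with a number. Each was measured in every cell barcode with at least 500 detected genes and at most 10% mitochondrial counts.

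The cells were AMs sorted by flow cytometry from the lungs of C57BL/6 mice and profiled with the 10x Genomics 3′ droplet method, which tags each captured mRNA molecule with a unique molecular identifier (UMI). The control library came from vehicle-control mice. The tumor library came from mice whose left lung had been injected with LLC, a mouse Lewis lung carcinoma line that carried the tdTomato reporter, as an orthotopic model. Both libraries were from mice of postnatal week 10 by the labels. How many mice were pooled in each library is not given in the labels. With 1 library per group there is no replicate check, so library and condition cannot be told apart and no p-value is given. All intervals are 95% intervals that cover counting error only. They are exact, except that the interval of a difference between shares is approximate and combines the exact limits of both shares by the square root of their summed squares.

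The filter kept 6185 of 8485 barcodes in the control library and 7666 of 9175 in the tumor library, with 64850143 and 68801889 UMIs. The median depth was 10370 UMIs per cell in the control library and 8264 in the tumor library. Between the libraries 25 barcodes were shared, 17 of them among those kept. All 14 AM markers were at 10 UMIs per 1000000 (CPM) or more in both libraries, and their summed level was 20537 CPM in the control and 17346 CPM in the tumor library. The summed level of the 8 monocyte markers was 172 and 245 CPM, and that of the 6 neutrophil markers 59.6 and 114 CPM, with *Ly6g* and *Retnlg* at 0 in the tumor library. The 5 fibroblast markers summed to 0.709 CPM in the control and 31.7 CPM in the tumor library, which bears on *Ccl2* as described with that gene.

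Chemokines are small secreted proteins that bind G protein-coupled receptors on leukocytes and draw them along a gradient. CC chemokines carry adjacent cysteines near the amino terminus. *Ccl3* and *Ccl4* encode MIP-1α and MIP-1β, and Ccl3 is a ligand of Ccr1. *Ccl2* encodes MCP-1, the main ligand of Ccr2 on inflammatory monocytes. *Ccl17* encodes TARC, a ligand of Ccr4 on T cells, and is known as a product of dendritic cells and of macrophages exposed to interleukin-4. *Ccl6* and *Ccl9* encode mouse ligands of Ccr1 that myeloid cells make without stimulation. From this background *Ccl6* and *Ccl9* are called constitutive below, and the other 4 inducible.

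In the GRCm38 annotation 5 of the 6 genes lie on chromosome 11. *Ccl9* (chr11:83572919-83578636, minus strand), *Ccl6* (chr11:83587882-83593087, minus), *Ccl3* (chr11:83647844-83649355, minus) and *Ccl4* (chr11:83662584-83664683, plus) fall within 91765 bases. *Ccl2* (chr11:82035571-82037453, plus) lies 1535465 bases from *Ccl9*, and *Ccl17* (chr8:94810453-94812036, plus) is on chromosome 8. The gene model of *Ccl6* overlaps the antisense gene *E230016K23Rik*, which had 280 and 501 UMIs against 224498 and 396517 for *Ccl6*.

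The 250 bases before the annotated start are printed for the constitutive neighbours *Ccl6* and *Ccl9*, whose levels moved by similar ratios between libraries, and for the inducible neighbour *Ccl3*. Sequences and starts are those of RefSeq on GRCm38.p6, taken from a set of upstream windows that held 4 of the 6 genes. Capitals mark matches on either strand to the letters TATAAA of the TATA box, GAGGAA of PU.1 sites or TGANTCA. The last is a loose form of AP-1 sites, in which N is any base. The windows are *Ccl6* at chr11:83593088-83593337, *Ccl9* at chr11:83578637-83578886 and *Ccl3* at chr11:83649379-83649628, all read from the minus strand.
Ccl6: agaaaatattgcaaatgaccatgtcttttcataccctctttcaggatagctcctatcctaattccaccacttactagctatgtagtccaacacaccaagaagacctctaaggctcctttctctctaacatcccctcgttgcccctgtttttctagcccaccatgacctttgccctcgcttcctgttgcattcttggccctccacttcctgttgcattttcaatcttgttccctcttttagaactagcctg
Ccl9: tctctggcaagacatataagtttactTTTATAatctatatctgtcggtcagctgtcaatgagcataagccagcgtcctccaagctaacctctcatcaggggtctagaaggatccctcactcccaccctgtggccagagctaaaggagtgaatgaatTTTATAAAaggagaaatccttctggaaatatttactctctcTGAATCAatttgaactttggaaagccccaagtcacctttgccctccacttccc
Ccl3: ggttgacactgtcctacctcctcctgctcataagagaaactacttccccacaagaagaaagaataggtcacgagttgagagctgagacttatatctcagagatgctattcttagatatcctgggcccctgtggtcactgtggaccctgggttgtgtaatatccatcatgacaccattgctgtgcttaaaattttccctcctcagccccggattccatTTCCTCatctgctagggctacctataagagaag
The *Ccl9* window held the TATA box letters and TGAATCA, a match to TGANTCA with A as the free base. The *Ccl3* window held the PU.1 letters and the *Ccl6* window none of the 3. Among 32841 windows of the same length, 12.4% held the TATA box letters, 23.3% those of PU.1 and 6.75% a match to TGANTCA on either strand. A match is a description of letters and not a site. At *Ccl9* the TATAAA matches on opposite strands 94 to 87 bases before the start overlap each other, and TGANTCA reads the same on both strands. The longest run shared by the *Ccl6* and *Ccl9* windows was gccctccacttcc, of 13 bases, which began 55 bases before the *Ccl6* start and 14 bases before the *Ccl9* start. The other 5 pairs of windows, with *Ccl17* included, shared runs of at most 10 bases.

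*Ccl6* stood apart from the other genes in level. Control AMs had 3462 CPM of it (3447 to 3476) and tumor AMs 5763 CPM (5745 to 5781), which ranked it 16th and 11th of all genes. Of all UMIs of the 6 genes, *Ccl6* held 92.2% in the control and 92.6% in the tumor library. The second constitutive gene, *Ccl9*, stood at 96.6 CPM (94.2 to 99.0) in control AMs and 169 CPM (166 to 172) in tumor AMs. The constitutive label therefore did not go with one level: in the control library *Ccl9* was below the inducible *Ccl3*.

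*Ccl3* stood at 140 CPM (137 to 143) in control AMs and 166 CPM (163 to 169) in tumor AMs. *Ccl4* was at 32.6 CPM (31.3 to 34.0) and 98.1 CPM (95.8 to 100.4). *Ccl2* was at 19.6 CPM (18.5 to 20.7) and 26.0 CPM (24.8 to 27.2). These inducible genes were thus detected without a tumor. *Ccl3* and *Ccl4* were higher in the tumor library, and so was *Ccl2*, by a difference that rested on few cells as described below. *Ccl17* was the lowest of the 6, with 5.07 CPM (4.54 to 5.65) in control AMs and 3.68 CPM (3.24 to 4.16) in tumor AMs, and was the sole member that was lower there. Since a 3′ method counts molecules and not fragments along them, CPM was compared between genes without division by length. The order of levels was *Ccl6*, *Ccl3*, *Ccl9*, *Ccl4*, *Ccl2* and *Ccl17* in the control library. In the tumor library *Ccl9* and *Ccl3* had overlapping intervals, and the rest of the order was as in the control.

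**Figure D1:**
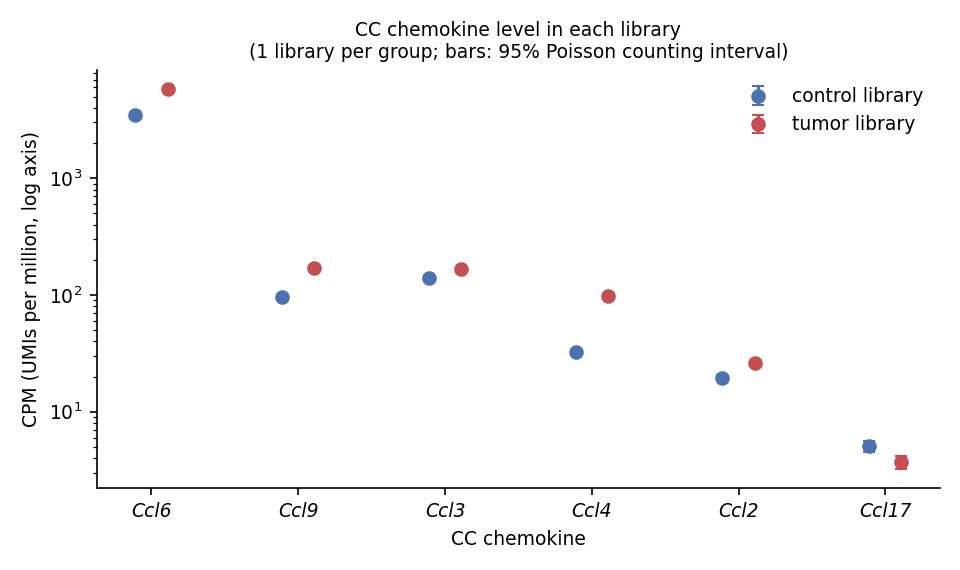
Level of each CC chemokine in CPM on a log axis, as 1 point per library with its 95% Poisson counting interval, which is mostly smaller than the point. *Ccl6* lies far above the others in both libraries, the gap between libraries is widest for *Ccl4* (32.6 and 98.1 CPM), and *Ccl17* is the sole gene with the tumor point below the control point.

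The ratio between libraries asks which of these genes differed most in AMs of tumor-bearing lungs. *Ccl4* was 3.01-fold higher in tumor AMs, with a log2 ratio of 1.59 (1.52 to 1.66). It was the 1 member of 6 at 2-fold or more, against 6.02% of the 13581 genes with at least 20 UMIs over both libraries. No member was 2-fold or more lower, against 6.91% of those genes. *Ccl9* and *Ccl6*, the constitutive pair, were 1.75-fold and 1.66-fold higher, with log2 ratios of 0.81 (0.76 to 0.85) and 0.74 (0.73 to 0.74). *Ccl2* had a log2 ratio of 0.41 (0.30 to 0.51), *Ccl3* of 0.24 (0.20 to 0.28) and *Ccl17* of −0.46 (−0.71 to −0.22). The median log2 ratio over all genes tested was −0.07. The neighbours *Ccl3* and *Ccl4* therefore differed in ratio: the tumor library had 59.2 *Ccl4* UMIs per 100 *Ccl3* UMIs, and the control library 23.3. For the constitutive pair the same measure hardly moved, with 2.79 *Ccl9* UMIs per 100 *Ccl6* UMIs in the control and 2.93 in the tumor library.

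The ratio of *Ccl2* rested on few cells. A single cell of the tumor library held 286 of its 1786 *Ccl2* UMIs, 16%, and the next cell held 63. The highest cell of the control library held 20 of 1270. The 286-UMI cell had 774 UMIs of the 5 fibroblast markers and 45 of the 14 AM markers among 35788 in all, 2 UMIs of *Ccl6* and none of *Ccl3*, *Ccl4*, *Ccl9* or *Ccl17*. The same cell held 139 of the 419 tumor UMIs of *Ccl7*, which encodes MCP-3, another ligand of Ccr2.

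That cell belonged to cluster L, 46 cells led by *Dcn*, *Igfbp4* and *Tm4sf1*, which had the lowest AM marker level of the 12 clusters (1218 CPM, against 12878 to 26867 CPM in the others). The 25 tumor cells of cluster L carried 369 *Ccl2* UMIs, 20.7% of those in the library, and had a fibroblast marker level of 6170 CPM, against 1.84 CPM in all other tumor cells. The 21 control cells of the cluster had 399 CPM of those markers and no *Ccl2* UMI. Their highest levels were of the AM markers (2056 CPM), the B cell and plasma cell markers (5009 CPM against 321 CPM in the tumor cells) and the endothelial markers (1869 and 783 CPM), so the marker levels of the cluster differed between the libraries. Without cluster L, *Ccl2* stood at 19.6 CPM in control AMs and 20.7 CPM in tumor AMs, and the log2 ratio of 0.08 had an interval across 0 (−0.03 to 0.19). Summed over all cells outside that cluster, no difference in *Ccl2* between the libraries was thus detectable, although single clusters differed in both directions, as given with the clusters. For the other 5 genes cluster L held at most 0.08% of the UMIs of either library.

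Shares of cells with a UMI were compared after each cell was thinned at random to 3800 UMIs, which left 5590 control and 6937 tumor cells. *Ccl6* was detected in 99.3% of control and 99.6% of tumor cells. *Ccl9* was detected in 22.4% (21.3 to 23.5) of control and 32.0% (30.9 to 33.1) of tumor cells. Among the constitutive pair, then, *Ccl6* was near its ceiling and the *Ccl9* share was 9.66 percentage points higher in the tumor library (8.09 to 11.2).

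*Ccl3* was detected in 26.9% (25.7 to 28.1) of control and 28.7% (27.6 to 29.8) of tumor cells, and *Ccl4* in 4.99% (4.43 to 5.59) and 13.7% (12.9 to 14.6). The *Ccl4* share was thus 8.73 percentage points higher (7.73 to 9.73) and the *Ccl3* share 1.81 points higher (0.22 to 3.40). *Ccl2* was detected in 5.22% (4.65 to 5.84) of control and 4.32% (3.86 to 4.83) of tumor cells, so its share was lower by 0.90 points where its level was higher, and no order is read from it. *Ccl17* was detected in 0.89% of control and 0.88% of tumor cells, a level near that of 1 UMI at which no change can be read. Without thinning the shares in the control and tumor library were 99.0% and 99.4% for *Ccl6*, 37.1% and 45.4% for *Ccl9*, 41.6% and 40.8% for *Ccl3*, 8.71% and 19.7% for *Ccl4*, 10.0% and 7.15% for *Ccl2* and 2.49% and 1.64% for *Ccl17*.

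Among cells with a UMI, the mean number per thinned cell was higher in the tumor than in the control library for *Ccl6* (12.8 and 21.9), *Ccl4* (2.35 and 2.84), *Ccl9* (1.59 and 1.94) and *Ccl3* (1.90 and 2.10). The higher *Ccl4* level in the tumor library was accordingly found both as more cells with a UMI and as more UMIs in each. At least 10 *Ccl6* UMIs were present in 59.3% of control and 83.4% of tumor cells. For *Ccl4* that count was reached in 10 of 5590 control and 44 of 6937 tumor cells.

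Cluster L served to gauge free RNA in droplets, being the cluster with the least AM marker RNA, at a median of 3901 UMIs per cell in the control and 6488 in the tumor library, against 10380 and 8264 in the other cells. Of its unthinned cells, 52.4% of the 21 control cells and 48.0% of the 25 tumor cells had a *Ccl6* UMI, with at most 4 in a cell. Their *Ccl6* level was 262 and 48.0 CPM, 7.55% and 0.83% of that in the other cells. *Ccl3* was found in 9.52% and 4.0% of these cells, *Ccl9* in 14.3% of the control and none of the tumor cells, and *Ccl4* in none of the control and 4.0% of the tumor cells. *Ccl17* was found in none, which allows a share of up to 14.3% of control and 12% of tumor cells by a floor of 3 counts, or 16.1% and 13.7% by the exact interval. Shares of *Ccl6* (99.1% and 99.6%) and *Ccl3* (41.7% and 40.9%) in the other unthinned cells were above the upper counting limits of cluster L in both libraries. So were those of *Ccl9* (37.1% and 45.5%), although the limit in the control library, 36.3% from 3 of 21 cells, was close. At equal depth, after thinning, cluster L had 11 control and 17 tumor cells. *Ccl6* (99.4% and 99.8% of the other cells) then stayed above its limits of 76.6% and 36.4%. *Ccl3* (28.8%) and *Ccl9* (32.1%) stayed above the limit of 19.5% in the tumor library, but not in the control library, where they were at 26.9% and 22.4% against a limit of 41.3%. The shares of *Ccl4* (8.74% and 19.7%), *Ccl2* (10.1% and 7.12%) and *Ccl17* (2.50% and 1.65%) lay within the limits that so few cells allow, and are not read as shares of expressing cells. For these genes the UMIs held by single cells carry the result. In the tumor library cluster L could not gauge free *Ccl2* RNA, since its cells had more *Ccl2* than the others. Its level there was 1107 CPM against 20.7 CPM, with a UMI in 16% of the 25 cells (limit 36.1%).

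Concentration over cells separated the genes more sharply than the constitutive and inducible labels did. The 1% of thinned cells with the most *Ccl6* UMIs held 3.64% of them in the control and 3.54% in the tumor library, and 50% of the *Ccl6* UMIs were in 27.3% and 27.8% of cells. *Ccl6* was thus spread over nearly all cells to the same degree in both libraries while its level differed. *Ccl9* and *Ccl3* were alike: the top 1% held 15.6% and 12.5% of the *Ccl9* UMIs, and 15.8% and 13.5% of the *Ccl3* UMIs, in the control and tumor library. The medians over all 8958 control and 9226 tumor genes with at least 100 thinned UMIs were 15.2% and 15.8%, a measure that also rises as a gene becomes rarer.

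*Ccl4* was far more concentrated than its neighbour *Ccl3*. The top 1% of cells, 56 in the control library, held 56.9% of the *Ccl4* UMIs, and 42 of 5590 cells held 50% of them. In the tumor library the top 1%, 70 cells, held 30.0%, and 165 of 6937 cells were needed for 50%. *Ccl4* UMIs were therefore spread over a larger share of cells in the tumor library, 2.38% against 0.75% for 50% of the UMIs. The highest unthinned *Ccl4* counts in a cell were similar, 73 in the control and 63 in the tumor library.

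*Ccl2* went the other way, with 38.7% of its UMIs in the top 1% of control cells and 52.6% in the top 1% of tumor cells, where the cell of cluster L described above is included. *Ccl17* UMIs were in 50 control and 61 tumor cells after thinning, fewer than the top 1%, so that share is 100% by construction. In unthinned cells the 10 highest held 30.4% of the *Ccl17* UMIs in the control and 30.8% in the tumor library, with up to 15 and 19 in a cell. The 56 control and 70 tumor cells ranked highest for thinned *Ccl17* UMIs included some with none. They had 0.14 and 0.16 UMIs of the 9 dendritic cell markers per cell, against 0.12 and 0.09 in the rest. Their UMIs of the AM markers were 99.2 and 73.7 per cell, against 77.3 and 67.0. The variance of thinned counts over their mean (Fano factor, 1 for random sampling of an even level) was 6.14 and 5.71 for *Ccl4*, 5.28 and 8.48 for *Ccl6*, 3.26 and 2.87 for *Ccl3*, 1.90 and 4.46 for *Ccl2* and 2.08 and 2.51 for *Ccl9*. The median gene had 1.03 and 1.04, and 1.55% and 2.03% of genes reached 2 or more. This factor also rises with level, and *Ccl6* had a mean of 12.7 and 21.8 UMIs per thinned cell. The variance beyond the mean, over the squared mean, was 0.337 and 0.343 for *Ccl6* and 43.8 and 12.1 for *Ccl4*. The median gene had 0.198 and 0.242 on that measure. The Fano factor of *Ccl6* is thus not read as concentration in few cells. *Ccl4*, with 655 thinned UMIs in the control library, ranked 22nd on this measure among the 8958 genes there with at least 100.

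**Figure D2:**
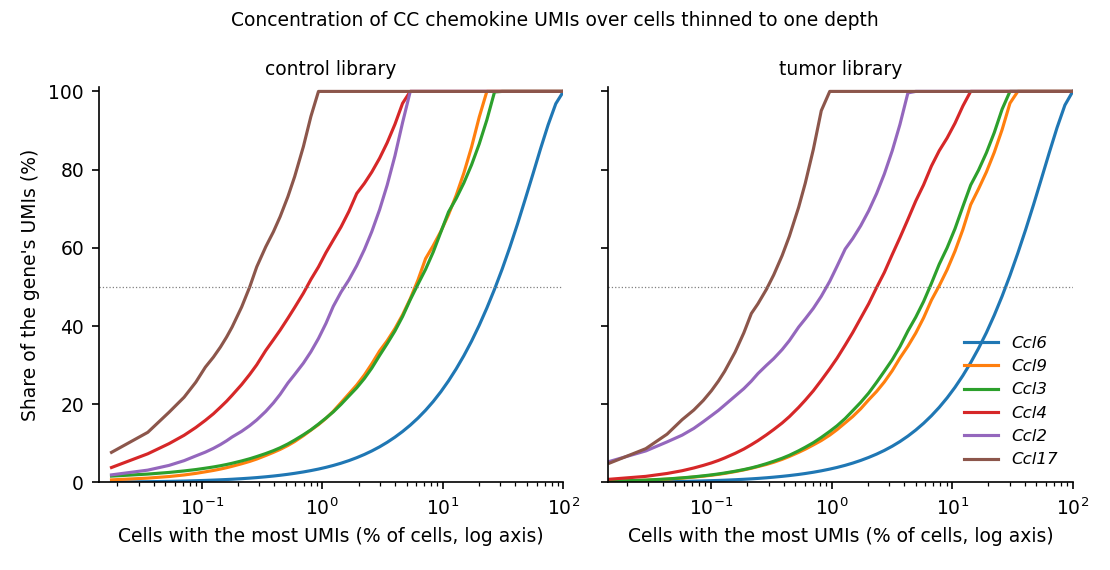
Cumulative share of each gene's UMIs (y axis, %) held by the cells with the most of them (x axis, % of cells, log axis) after thinning to 3800 UMIs, for each library. Curves further left are more concentrated: *Ccl6* is the rightmost curve in both libraries, and the *Ccl4* curve lies further right in the tumor library (50% of UMIs in 2.38% of cells) than in the control library (0.75%).

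Depth did not set the cells with the most *Ccl4* apart in the tumor library, where the top 1% had a median of 8379 UMIs against 8773 in the rest. In the control library the medians were 12046 and 10837. Of these cells, 6 of 56 control and 6 of 70 tumor cells were among the highest doublet scores, 10.7% and 8.57%, against 4.43% and 5.35% of all cells. The top 1% of *Ccl3* cells in the control library had 18.0 UMIs of the 20 NF-κB and inflammatory genes per thinned cell, against 8.35 in the rest, and 30.7 against 22.5 UMIs of the 16 immediate early and dissociation genes. For *Ccl4* the same values were 12.8 against 8.40 and 29.4 against 22.5. In the tumor library they were 21.2 against 15.4 and 43.4 against 35.1 for *Ccl3*, and 17.8 against 15.5 and 45.4 against 35.1 for *Ccl4*.

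*Ccl3* and *Ccl4* had the highest correlation over cells of any pair of the 6 genes in both libraries. Of control cells with a *Ccl4* UMI, 47.0% (41.0 to 53.0) also had a *Ccl3* UMI, against 25.8% (24.7 to 27.0) of cells without. In the tumor library these shares were 45.5% (42.3 to 48.7) and 26.0% (24.9 to 27.2). About as many *Ccl4* cells thus lacked a detected *Ccl3* UMI as had one, at a depth where absence of a UMI does not show absence of the mRNA. The Pearson correlation of log2(UMIs + 1) over thinned cells was 0.19 and 0.22, the highest that either gene had with any of 9417 genes when averaged over the libraries.

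*Ccl4* was higher in the tumor library at a like *Ccl3* count. Among cells with no *Ccl3* UMI, 3.62% of 4087 control and 10.5% of 4946 tumor cells had a *Ccl4* UMI. Among cells with 1 to 2 *Ccl3* UMIs the shares were 6.16% of 1185 and 17.9% of 1469 cells. Among those with 3 to 9 they were 17.6% of 312 and 32.4% of 512 cells. In all 3 bins the intervals of the libraries did not overlap, so the difference in *Ccl4* detection was not confined to cells with more *Ccl3*. Free RNA was not gauged within the bins, so these are not read as shares of expressing cells. With 10 or more *Ccl3* UMIs there were 6 control and 10 tumor cells, too few to compare.

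**Figure D3:**
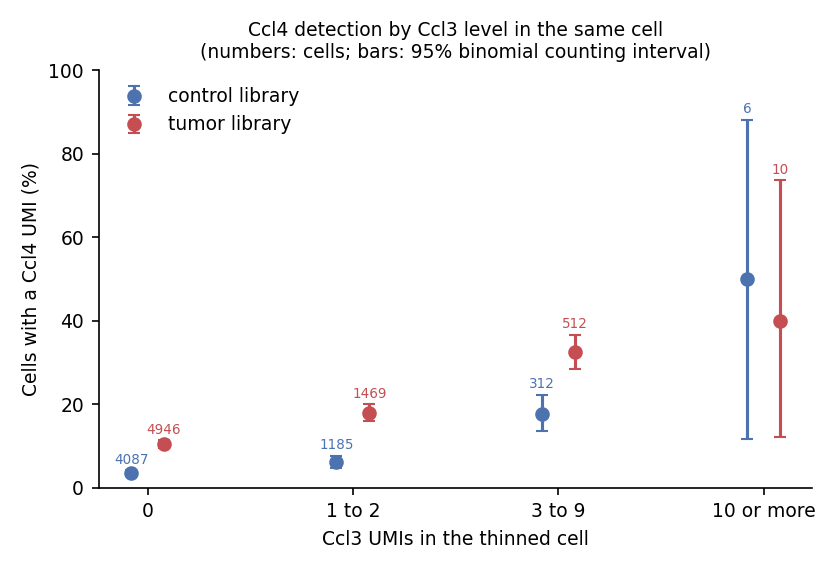
Share of thinned cells with a *Ccl4* UMI (y axis, %) by the number of *Ccl3* UMIs in the same cell (x axis), with 95% binomial counting intervals and the number of cells above each point. Within each library the share rises from 0 to 3 to 9 *Ccl3* UMIs, and the tumor points lie above the control points in these bins (10.5% against 3.62% at 0 *Ccl3* UMIs); the last bin holds 6 and 10 cells.

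*Ccl2* cells also had *Ccl3* more often than others, in 40.4% (34.7 to 46.3) against 26.1% of control cells and 46% (40.3 to 51.8) against 27.9% of tumor cells. *Ccl9* and *Ccl3*, similar in level in the tumor library, showed little relation: 30.1% of control *Ccl9* cells had a *Ccl3* UMI against 26.0% of other cells, and 28.4% against 28.8% in the tumor library. *Ccl6* and *Ccl9* had a correlation of 0.14 in the control and 0.03 in the tumor library. More than 1 of the 4 inducible genes was detected in 4.11% of control cells for 2 genes and 0.36% for 3 genes, and in 7.77% and 0.65% of tumor cells. No gene of the 4 was detected in 66.9% of control and 61.4% of tumor cells.

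Over the thinned cells, the genes most like each member were named where the correlation was at least 0.1 in both libraries. The cells of a library share its handling and sequencing, so these values are descriptions. For *Ccl3* they were *Ccl4*, *Cxcl2* (0.13 in the control and 0.10 in the tumor library) and *Gdf15* (0.10 and 0.12). *Ccl6* was most like *Ctsd*, which encodes the lysosomal protease cathepsin D (0.32 and 0.29), followed by *Plet1* (0.22 and 0.29), *Wfdc21* (0.22 and 0.28), *Wfdc17* (0.20 and 0.26) and *Spp1*, which encodes osteopontin (0.18 and 0.27). *Ccl9* was most like *Mmp12*, the macrophage elastase (0.18 and 0.15), *Crip1* (0.16 and 0.14), *Il1b* (0.14 and 0.13), *Cybb*, the NADPH oxidase subunit (0.15 and 0.11), and *Cxcl2* (0.12 and 0.13). The constitutive pair thus had no gene in common among these. For *Ccl4* the sole such gene was *Ccl3*, and *Ccl2* and *Ccl17* had none.

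Cells of both libraries were clustered together on 2000 variable genes from which all CC and CXC chemokines had been left out, giving 11 clusters of at least 50 cells. Clusters C, F and G held 49.0% of tumor and 2.64% of control cells and are called tumor-enriched. Cluster C had *F13a1*, *S100a4*, *S100a6* and *Il1b* among its leading genes, F was led by the interferon-induced genes *Irf7* and *Isg15*, and G by *Apoe*, *C3ar1* and *Itgam*. They held 54.1% of all tumor UMIs, 67.6% (66.7 to 68.4) of those of *Ccl9*, 65.3% (64.1 to 66.4) of *Ccl4* and 61.6% (61.5 to 61.8) of *Ccl6*. For *Ccl3* the share was 48.4% (47.5 to 49.3), below the share of all UMIs, and for *Ccl17* it was 55.7% (49.4 to 62.0). For *Ccl2* it was 41.8% (39.5 to 44.2) with cluster L in the library and 52.7% (50.1 to 55.3) without it. With coarser clusters (Leiden resolution 0.5) the *Ccl17* share fell to 31.2% and the *Ccl9* share to 49.9%, against 46.5% of all UMIs. With finer clusters (resolution 1.5) the *Ccl9* share was 57.8%, against 44.3% of all UMIs.

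Within the tumor library, tumor-enriched clusters had 211 CPM of *Ccl9* and the other cells 119 CPM, 6572 and 4811 CPM of *Ccl6*, and 118 and 74.1 CPM of *Ccl4*. For *Ccl3* the values were 148 CPM in these clusters and 186 CPM outside them. Summed over C, F and G, the constitutive pair and *Ccl4* were thus higher and *Ccl3* lower than in the other tumor cells. *Ccl4* was above the other cells in C and F. In G (78.7 CPM, 73.0 to 84.7) its interval held their level, and without the highest cell it stood at 73.8 CPM. *Ccl6* in F (4664 CPM) was below the other cells. With the tumor-enriched clusters left out of both libraries, the log2 ratio was 1.26 (1.17 to 1.34) for *Ccl4*, 0.49 (0.48 to 0.50) for *Ccl6*, 0.38 (0.32 to 0.44) for *Ccl9* and 0.42 (0.37 to 0.47) for *Ccl3*. For *Ccl2* it was 0.73 with cluster L kept and 0.11 (−0.02 to 0.25) without it, and for *Ccl17* −0.31 (−0.64 to 0.02). These sums pool clusters whose shares of cells differed between the libraries. Cluster by cluster, the *Ccl4* log2 ratio was below 2-fold in A (0.65), B (0.79), D (0.82) and H (0.69) and above it in E (1.2), I (1.63), J (2.16) and K (2.60). The *Ccl9* and *Ccl6* ratios of the pooled cells were smaller than over all cells.

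Within single clusters *Ccl6* was higher in the tumor library in 10 of 11 clusters and *Ccl4* in 9 of 11, where only ratios whose counting interval excludes 0 are counted. Both were lower in cluster G, which had 13 control cells, 1 of them with 30 of the 31 *Ccl4* UMIs. Without the highest cell of each library there, the log2 ratio of *Ccl4* in G was 3.17 (0.68 to 8.47), from 1 control UMI, and that of *Ccl6* had an interval across 0 (−0.09, −0.19 to 0.01). *Ccl4* was then higher in all 10 clusters that gave a ratio. *Ccl9* was higher in 4 of 11 clusters (A, B, H and J) and lower in C and G, with intervals across 0 in the other 5, among them D (0.08, −0.07 to 0.23) and E (0.00, −0.11 to 0.10). Without the highest cells *Ccl9* was higher in 5 (A, B, F, H and J) and lower in C and G. In control cluster G, where 1 cell held 30 of the 70 *Ccl9* UMIs, the level went from 504 to 329 CPM. The *Ccl9* difference over all cells was thus not found within most clusters. *Ccl17* was higher in none and lower in 5 (C, E, F, G and I). Without the highest cells it was lower in 4 (A, C, E and F), with an interval across 0 in G and too few UMIs left in I. *Ccl4* was at 25.3 CPM in the control and 39.6 CPM in the tumor library in cluster A, led by *Marco*, at 61.1 and 108 CPM in cluster D, led by the heat shock genes *Hspa1b* and *Hspa1a*, and at 34.7 and 79.6 CPM in cluster E, led by *Mmp12* and *Inhba*. *Ccl3* was higher in 3 clusters and lower in 1, with intervals across 0 in the other 7. Without the highest cells it was higher in 4 (C, E, G and H) and lower in 2 (B and F), and in G, where 1 cell held 22 of the 25 control UMIs, the log2 ratio went from −0.23 to 2.61.

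The highest *Ccl3* level among tumor clusters was in D (250 CPM), then E (242 CPM) and the cell cycle cluster H (182 CPM), and in the control library in F (271 CPM, from 69 cells), D (265 CPM) and E (210 CPM). *Ccl4* was highest in C (142 CPM), F (113 CPM) and D (108 CPM) of the tumor library, and in G (223 CPM, from 13 cells), F (125 CPM) and D (61.1 CPM) of the control. Values of control cluster F moved with its highest cell: without that cell *Ccl4* stood there at 64.5 CPM, *Ccl17* at 19.4 CPM, *Ccl2* at 13.5 CPM and *Ccl3* at 204 CPM, the last below D (261 CPM without its own highest cell). *Ccl6* was highest in C (7426 CPM), G (7027 CPM) and E (5532 CPM) of the tumor library, and in G (7757 CPM), C (5749 CPM) and E (5032 CPM) of the control. The ratio of the highest to the lowest *Ccl6* cluster was 2.82 in the tumor and 6.06 in the control library. In the control library cluster K, led by *Slc40a1* and *Nqo1*, was lowest at 1280 CPM, and the highest, G, rested on 13 cells.

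*Ccl9* was highest in F (292 CPM), J (183 CPM) and C (183 CPM) of the tumor library, and in G (504 CPM), C (270 CPM) and F (264 CPM) of the control. In the tumor library the *Ccl9* level of E (181 CPM, 172 to 191) lay within the interval of J (139 to 236 CPM). E was among the leading *Ccl3* clusters there, so whether both genes shared a leading cluster is not resolved. In the control library F was among the leading clusters of both. *Ccl2* was highest in H (39.7 CPM), G (39.4 CPM) and E (28.5 CPM) of the tumor library and in D (46.3 CPM), H (27.0 CPM) and F (23.5 CPM) of the control. In tumor cluster H 1 cell held 29 of the 92 *Ccl2* UMIs. *Ccl2* was lower in the tumor library in clusters A, B and D and higher in E, H and I. Without the highest cell of each library in the cluster, the log2 ratio was 1.23 (0.88 to 1.60) in E, while its interval was across 0 in H (0.14, −0.31 to 0.58) and I (0.67, −0.13 to 1.49). In C the ratio was then 2.73 (0.23 to 8.04), from 1 control UMI. The direction of *Ccl2* thus differed between A, B and D on one side and E on the other. *Ccl17* was highest in F (7.86 CPM) and E (7.30 CPM) of the tumor library, followed by K (3.86 CPM, from 1 UMI). In the control library it was highest in G (115 CPM), where 15 of 16 UMIs came from 1 cell, F (38.1 CPM) and C (13.2 CPM).

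**Figure D4:**
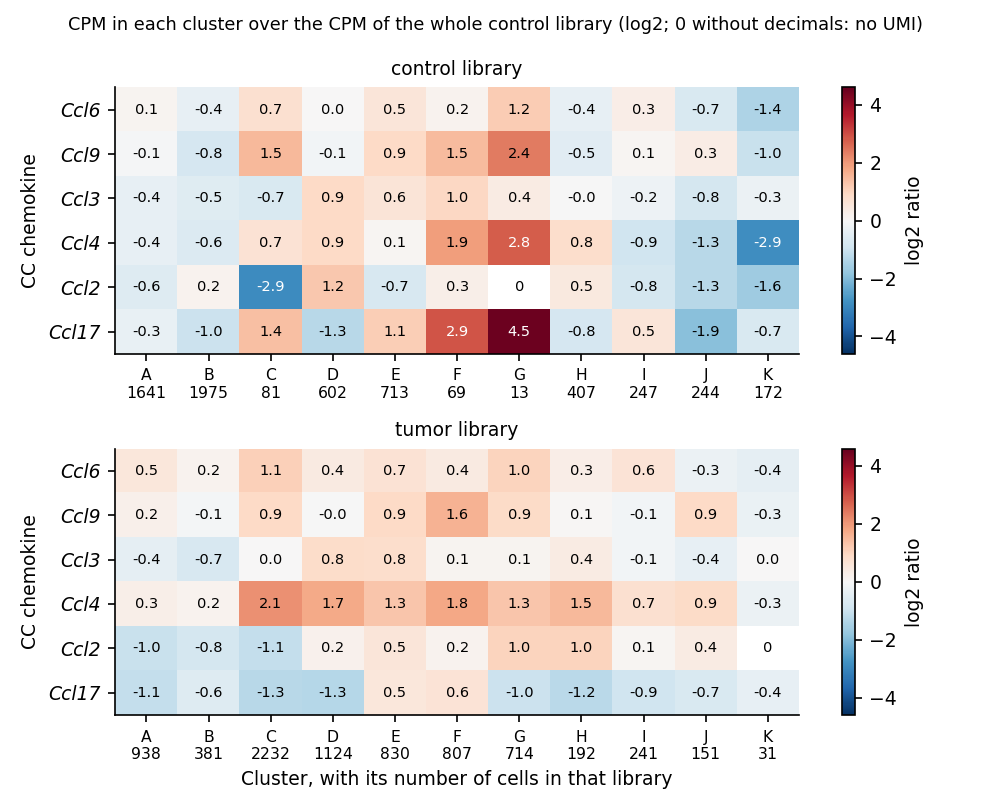
Level of each CC chemokine in clusters A to K as the log2 ratio of the cluster's CPM to the gene's CPM over the whole control library, with the number of cells under each cluster letter. The *Ccl4* row is above 0 in all tumor clusters but K, the *Ccl6* row is above 0 in all but J and K, and the control columns C, F and G rest on 81, 69 and 13 cells.

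Of the other 17 genes with a Ccl symbol, 8 had at least 20 UMIs over both libraries, and all were below 11 CPM. *Ccl7* (1.99 and 6.09 CPM), *Ccl8* (1 and 95 UMIs), *Ccl12* (0.46 and 0.94 CPM) and *Ccl24* (1 and 32 UMIs) were at least 2-fold higher in the tumor library, and *Ccl22*, a further Ccr4 ligand, was lower (6.6 and 2.97 CPM). The log2 ratio of *Ccl8* was 6.48 (3.97 to 11.8) and that of *Ccl24* 4.91 (2.33 to 10.3). All 32 tumor UMIs of *Ccl24* came from 1 cell. The log2 ratio of *Ccl12* was 1.03 with an interval across 2-fold (0.39 to 1.71). Of its 65 tumor UMIs, 6 came from 1 cell with 67 UMIs of the monocyte markers and 8 of the AM markers. *Ccl25*, the most abundant of these genes (10.2 and 7.70 CPM), and *Ccl27a* (4.24 and 3.02 CPM) were lower in the tumor library by less than 2-fold. *Ccl22* and *Ccl17*, which share the receptor Ccr4, thus both had a lower CPM in the tumor library. For *Ccl17* this came with like shares of thinned cells with a UMI, 0.89% and 0.88%. Without the tumor-enriched clusters its log2 ratio had an interval across 0 (−0.64 to 0.02).

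*Ccl5*, which encodes RANTES, had 147 control UMIs, of which 146 were in 1 cell, and 260 tumor UMIs, of which 140 were in 1 cell. The control cell had 77 UMIs of the 4 NK cell markers besides 408 of the AM markers, and the tumor cell had none of the NK cell markers and 165 of the AM markers. *Ccl8* and *Ccl24* reached the minimum of 20 UMIs only through the tumor library and so could only be higher there. Of the other 6 genes, 2 were at least 2-fold higher and 1 at least 2-fold lower, against 6.02% and 6.91% of all genes tested. The summed level of the 17 genes was 25.9 CPM in the control and 26.6 CPM in the tumor library.

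Of 14 receptor genes described here, 7 passed the same minimum. *Ccr1*, the receptor of Ccl3, Ccl6 and Ccl9, was at 98.6 CPM in the control and 118 CPM in the tumor library. *Ccr2*, the receptor of Ccl2, was at 4.38 and 9.16 CPM, and *Ccrl2*, a receptor that binds without signalling, at 68.0 and 151 CPM. *Ackr1*, a scavenging receptor of endothelium and erythroid cells, had no control UMI and 30 tumor UMIs, and 19 of the 30 were in 1 cell. Against a floor of 3 counts over the control library *Ackr1* was 9.43-fold higher. That is a log2 ratio of 3.24, and the lower limit of its interval was 2.85. *Cx3cr1*, the fractalkine receptor, was at 1.97 and 3.11 CPM, and *Ccr6* (26 and 24 UMIs) and *Ccr7* (27 and 20 UMIs) had ratios with intervals across 0. *Ccr4*, a receptor of Ccl17, had no UMI in either library. The cells thus carried mRNA of a receptor for Ccl3, Ccl6 and Ccl9, while none of *Ccr4* was detected. *Ackr1* reached the minimum only through the tumor library. Of the other 6 receptors, *Ccr2* and *Ccrl2* were at least 2-fold higher and none was 2-fold lower, against 6.02% and 6.91% of all genes tested.

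**Figure D5:**
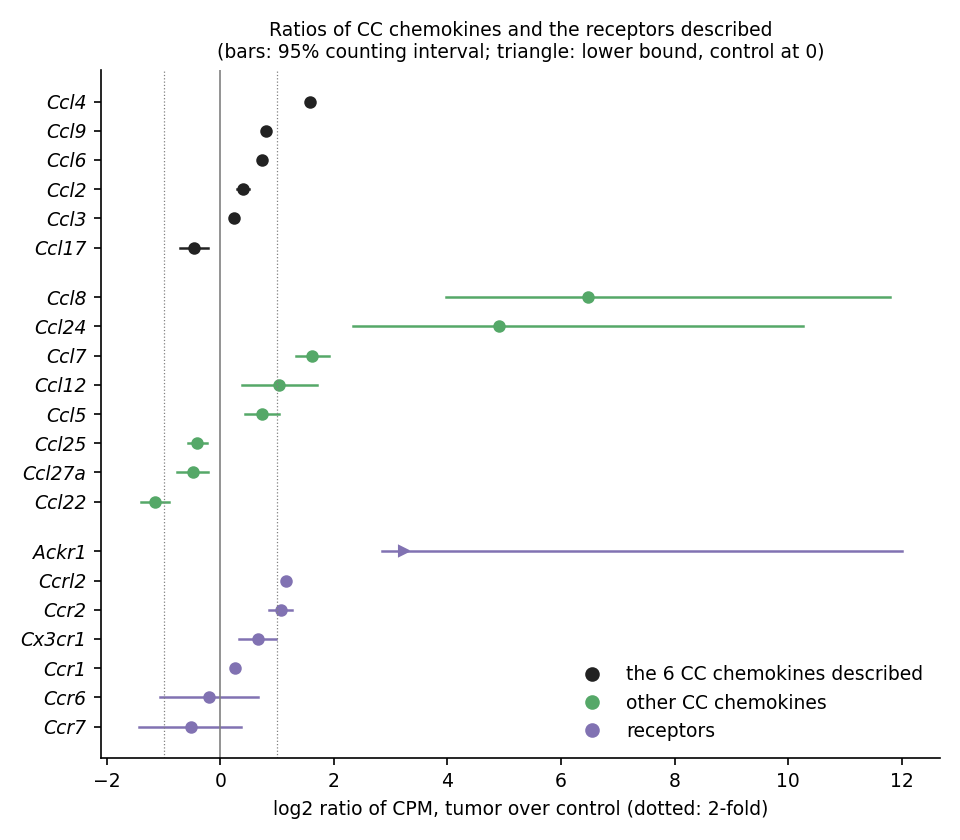
Log2 ratio of CPM, tumor over control, with 95% counting intervals. Shown are the 6 CC chemokines described, the other CC chemokines and the 7 receptors described with at least 20 UMIs. The triangle, labelled a lower bound, is the ratio against a floor of 3 control counts, and its interval reaches lower. Dotted lines mark 2-fold. *Ccl4* at 1.59 is the sole one of the 6 beyond 2-fold, and the wide intervals of *Ccl8* and *Ccl24* come from 1 control UMI each.

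Genes of inflammation and of stress were also compared between the libraries. Of 20 NF-κB and inflammatory genes, 10 were at least 2-fold higher in the tumor library and none 2-fold lower, against 6.02% and 6.91% of all genes tested, with a median log2 ratio of 0.91. They included *Il1b* (136 and 687 CPM), *Il6* (3.1 and 26.5 CPM), *Ptgs2* (0.31 and 16.7 CPM) and *Tnfaip3* (103 and 221 CPM), while *Tnf* was at 87.0 and 79.9 CPM. Among the 10, *Il10* (4 and 40 UMIs) reached the minimum of 20 UMIs only through the tumor library. *Il10* could therefore only be higher there, and adds nothing to the comparison with 6.02%. Of 16 immediate early and dissociation genes, *Hspa1a* (111 and 260 CPM) and *Hspa1b* (106 and 311 CPM) were at least 2-fold higher and the median log2 ratio was 0.54. Their part in the chemokine ratios was not tested.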

How the data were processed

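The authors deposited, for each library, unnormalized UMI counts for each gene in each cell barcode, made with bcl2fastq 2.20 and Cell Ranger 4.0.0 on mm10 by the submitters' processing notes (the published methods name another Cell Ranger release), with no filter or normalization. Of 32285 Ensembl identifiers, 32158 matched a symbol. The published methods assign barcodes to samples by hashtag reads, which were not used here; the condition of each cell is that of its library by the labels. Of the receptor list, 1 further gene is not reported here.

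From these counts, UMIs were summed over kept cells and scaled to CPM, with exact Poisson, binomial and conditional binomial 95% intervals. The depth for thinning, 3800 UMIs, is the 10th percentile of UMIs per cell in the tumor library, the shallower one. Scrublet's own threshold called 0 doublets in both libraries and so did not work; doublets were kept, and an alternative left out the highest scores. Cells were clustered by the Leiden method at resolution 1 after mutual nearest neighbour correction; letters do not map onto published numbers. A cluster counted as tumor-enriched with at least 90% of cells from the tumor library after equal weighting. A gene at 0 was set to 3 counts. Called means at least 2-fold.

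Named genes are the 6 members, all other Ccl genes and receptors described at 20 UMIs or more, list genes past 2-fold or most abundant, the 5 most alike genes with a correlation of at least 0.1 in both libraries, and the 3 highest clusters per member. *Ccr4*, *Tnf* and the single cells described were chosen after their values were seen. Members and lists were chosen with earlier results of these data known. Alternatives changed the doublets, filter, scaling, thinning, highest cells, clusters left out and clustering. The computation of the ratio intervals was checked on simulated data with 200 of 13581 genes changed. Of the intervals, 95.4% held the true ratio of tumor over control. The simulated library totals were Poisson draws, the model that the intervals assume, so coverage near 95% was built in. UMIs clumped in single cells, as found in these data, were not simulated. The intervals treat UMIs as independent and do not cover such clumping. The software was scanpy 1.11.5 (with anndata 0.12.19), igraph 0.11.9 and leidenalg 0.10.2 for clusters, and scikit-learn 1.9.0, scipy 1.17.1, numpy 2.4.6, matplotlib 3.10.9 and pandas 2.3.3 under Python 3.11.15.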

Additional observations from a re-analysis of the deposited data

How the results depend on the processing

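With 1 library per group, no alternative tests the difference between conditions. *Ccl4*, *Ccl6*, *Ccl9* and *Ccl3* kept a higher and *Ccl17* a lower CPM in the tumor library under every alternative run; for *Ccl17* without the tumor-enriched clusters the interval was across 0. The stricter filter moved no ratio beyond its counting interval. For *Ccl2* no difference was detectable without its 10 highest cells. The planned removal of clusters of other cell types could not be run, since no cluster met the rule; leaving out cluster L, the tumor-enriched clusters, both, or the single highest cell (also within clusters) was chosen after seeing the data. No paired analysis was possible because each group is 1 library. The log2 ratio, tumor over control, taken as the mean of each cell's own CPM was 0.0067 for *Ccl2*, 1.74 for *Ccl4* and 0.77 for *Ccl6*. Without the 10 cells of each library with the most UMIs of the gene it was −0.0074 (−0.13 to 0.11) for *Ccl2* and 1.81 for *Ccl4*. Without the 1 such cell of each library the value was 0.18 for *Ccl2*. Without cluster L the ratio was 0.078 for *Ccl2*. Without the tumor-enriched clusters the ratios were 0.73 for *Ccl2*, 0.42 for *Ccl3*, 1.26 for *Ccl4*, 0.49 for *Ccl6* and 0.38 for *Ccl9*, and with cluster L left out too 0.11, 0.43, 1.27, 0.51 and 0.39. Scaled to the median ratio of genes tested they were 0.31 for *Ccl3*, 0.80 for *Ccl6* and 0.87 for *Ccl9*. Leaving out the highest doublet scores (274 control and 410 tumor cells) gave a log2 ratio of 0.73 for *Ccl6*. Without a quality filter the value was 0.75 for *Ccl6*. The causes were not tested, other than the cells left out.

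The difference in the share of cells with a UMI, tumor minus control, was in percentage points, at 2000 UMIs, 6.47 for *Ccl4*, 1.92 for *Ccl6* and 6.73 for *Ccl9*. Without thinning it was −2.89 for *Ccl2*, −0.797 for *Ccl3*, whose direction changed, 11 for *Ccl4* and −0.846 for *Ccl17*. At a minimum of 2 UMIs it was −0.0518 for *Ccl2*, 5.25 for *Ccl4*, 1.69 for *Ccl6* and 7.2 for *Ccl9*. The share of UMIs in the top 1% of control cells was, in percent at 2000 UMIs, 46.5 for *Ccl2*, 17.4 for *Ccl3*, 3.97 for *Ccl6* and 18.9 for *Ccl9*. In unthinned control cells it was 5.12 for *Ccl6* and 72 for *Ccl17*. The share of control *Ccl4* cells with a *Ccl3* UMI was 38.8% at 2000 UMIs and 63.6% unthinned. The share of UMIs in the top 1% of tumor cells was, in percent at 2000 UMIs, 62.0 for *Ccl2*, 16.8 for *Ccl3*, 31.9 for *Ccl4*, 3.76 for *Ccl6* and 14.7 for *Ccl9*. In unthinned tumor cells it was 59.6 for *Ccl2*, 5.31 for *Ccl6*, 13.7 for *Ccl9* and 80.6 for *Ccl17*. The share of tumor *Ccl4* cells with a *Ccl3* UMI was 34.6% at 2000 UMIs and 58.2% unthinned. The share of tumor UMIs in tumor-enriched clusters was 52.7% for *Ccl2* without cluster L. It was, in percent at Leiden resolution 0.5 (46.5 for all genes), 33.8 for *Ccl2*, 43.5 for *Ccl3*, 59.3 for *Ccl4*, 57.6 for *Ccl6*, 49.9 for *Ccl9* and 31.2 for *Ccl17*. At resolution 1.5 (44.3 for all genes) it was 34.8 for *Ccl2*, 36.2 for *Ccl3*, 48.9 for *Ccl4*, 51.1 for *Ccl6*, 57.8 for *Ccl9* and 48.2 for *Ccl17*. Without correction between libraries (58.3 for all genes) it was 55.1 for *Ccl3*, 71.2 for *Ccl4*, 65.3 for *Ccl6* and 70.4 for *Ccl9*. At this depth no change in the share of cells can be read for *Ccl17*.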
